A study of Mus musculus with 15 samples.

Results

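Thalamic excitatory neurons were examined in single-nuclei RNA sequencing (snRNA-seq) of dorsal hippocampal formation (dHF) micropunches, a tissue in which they are bystanders from below the hippocampus. A nucleus was taken as thalamic on its own counts of unique molecular identifiers (UMIs): at least 1000 genes detected, Tcf7l2 at 3 UMIs or more, Slc17a6 at 1 or more, Synpo2 and Prkcd together at 3 or more, Gad1 and Gad2 together at 1 or fewer, and no Pou4f1. This rule found 6518 nuclei, 4.86% of the 134019 barcodes in 15 libraries and 5.23% of the 124527 barcodes with at least 1000 genes. Each library came from the 4 bilateral punches of 1 wild-type C57BL6/J female. The nulliparous group (NP) held 6 virgin females of the same age as the mothers. Of the mothers, 4 had raised a litter without added stress (control RE, for reproductive experience), and 5 had a stress paradigm (stress RE) in which the late postpartum period combined scarce nesting material with daily separation from the pups. The labels assign the libraries to 3 batches, and batch 1 holds 2 NP mice and 1 stress RE mouse but no control RE mouse.

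Thalamic relay neurons carry sensory, motor and association signals to the cortex, and release glutamate that is loaded into vesicles mainly by the transporter Slc17a6 (VGLUT2). Tcf7l2 and Lef1 are transcription factors that act with beta-catenin downstream of Wnt signals. Tcf7l2 is known to maintain the identity of thalamic and habenular neurons, and the habenula next door is set apart by Pou4f1. T-type calcium channels give thalamic neurons their switch between tonic and burst firing. Prkcd, a protein kinase C, is a classical marker of first-order thalamic nuclei, and Synpo2 is an actin-binding protein.

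The rule favours deeply covered barcodes, since it asks for detected genes and UMIs. The thalamic median was 16140 UMIs (interquartile range 12120 to 21264) and 4468 genes, and in each mouse the thalamic median (11868 to 21794 UMIs) was above the median of the whole library (3993 to 8754 UMIs). Mitochondrial UMIs made up 0.0215% to 0.129% of their total per mouse. The p-values below weigh a difference or correlation against the variation between mice. With 1 library per mouse, effects of the library and its punches cannot be told apart from those of the mouse. Summed over nuclei, a mouse contributed 1871225 to 16977115 thalamic UMIs. Between mice of 1 group, log2 expression in thalamic nuclei correlated across genes at r = 0.944 to 0.988. Among all barcodes, 2211 of 131768 distinct barcode sequences occurred in more than 1 library, and 3 barcode sequences were thalamic in more than 1.

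Values near the edge of the rule are given as a description. With every other criterion met, 112 nuclei had exactly 3 Tcf7l2 UMIs, and 90.2% of these held Lef1, which the rule did not use. Just outside it, 95 barcodes had 2 Tcf7l2 UMIs and 74.7% held Lef1. Across all members the median was 14 Tcf7l2 UMIs (interquartile range 9 to 19) and 97.9% held Lef1. The depth fell toward the edge as well, at a median of 8280 UMIs inside it and 7933 outside it. For Slc17a6, with a threshold of 1 UMI, the median was 3 UMIs (interquartile range 2 to 5), so many members sat at or next to that threshold.

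The markers were compared with the same genes in 3 other sets of nuclei from these libraries, also chosen by UMI rules: 326 habenula-type nuclei (Pou4f1 and Slc17a6), 14003 Slc17a7-rich excitatory nuclei without Slc17a6 or Tcf7l2, and 5538 GABAergic nuclei. Levels are in CPM (the UMIs of a gene summed per mouse and scaled to the same total), in mice with at least 10 nuclei of a set, which was 15 mice for all sets but the habenula-type set (7 mice). A CPM value depends on the length and sequence of a gene, so levels were compared between sets of nuclei and not between genes. Where the members of a gene list with the most UMIs are named, that order is not corrected for gene length. Because the rules used several of these genes, no test was made.

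Tcf7l2 (chromosome 19, 55741820 to 55933654, plus strand, GRCm38) stood at 869 CPM ± 92.1 (SD, n = 15) in thalamic nuclei, with 738 CPM in the lowest and 1025 CPM in the highest mouse. Habenula-type nuclei held 629 CPM ± 99.1 (n = 7) and GABAergic nuclei 154 CPM ± 75.8 (n = 15). Slc17a6 (chromosome 7, 51622006 to 51671119, plus strand) was close between the thalamic (212 CPM ± 21) and habenula-type nuclei (173 CPM ± 20.4). What set the thalamic nuclei apart from the habenula-type nuclei was Synpo2 and Prkcd, both used by the rule, and Lef1, which was not.

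Synpo2 (chromosome 3, 123076519 to 123236149, minus strand) had 1076 CPM ± 93.7 in thalamic, 27 CPM ± 24.9 in habenula-type, 9.8 CPM ± 3.76 in Slc17a7-rich and 18.8 CPM ± 7.26 in GABAergic nuclei. Prkcd (chromosome 14, 30595354 to 30626210, minus strand) had 267 CPM ± 53.6 against 10.1 to 19.1 CPM in the other sets. Lef1 (chromosome 3, 131110471 to 131224356, plus strand) had 797 CPM ± 90.1 in thalamic nuclei, from 630 to 937 CPM over mice. Its level was 178 CPM ± 42.4 in habenula-type, 37.1 CPM ± 30.3 in GABAergic and 3.81 CPM ± 2.05 in Slc17a7-rich nuclei, and the thalamic and habenula-type ranges over mice did not overlap. After every nucleus was thinned to 3000 UMIs (9 thalamic nuclei were too shallow and left out), Lef1 was detected in 83.9% of thalamic, 32.8% of habenula-type, 8.22% of GABAergic and 1.19% of Slc17a7-rich nuclei. The defining marker of the habenula, Pou4f1, was at 0 by the rule, and Tac2 and Gpr151, which the rule did not use, were at 0.218 and 0.261 CPM against 127 and 26.6 CPM in habenula-type nuclei. Gad1 (3.2 CPM) and Gad2 (2.24 CPM) were near the floor that the rule allows. Of these markers, Lef1, Tac2 and Gpr151 were not used by the rule, and their levels over all thalamic nuclei did not go against the label of thalamic excitatory neurons. This did not hold for Lef1 in each of the sub-clusters described below, since sub-clusters 10 (197 to 231 CPM over 3 mice) and 4 (178 CPM, pooled) lay within the habenula-type range over mice (102 to 236 CPM) and sub-cluster 9 (207 to 551 CPM) overlapped it.

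**Figure D1:**
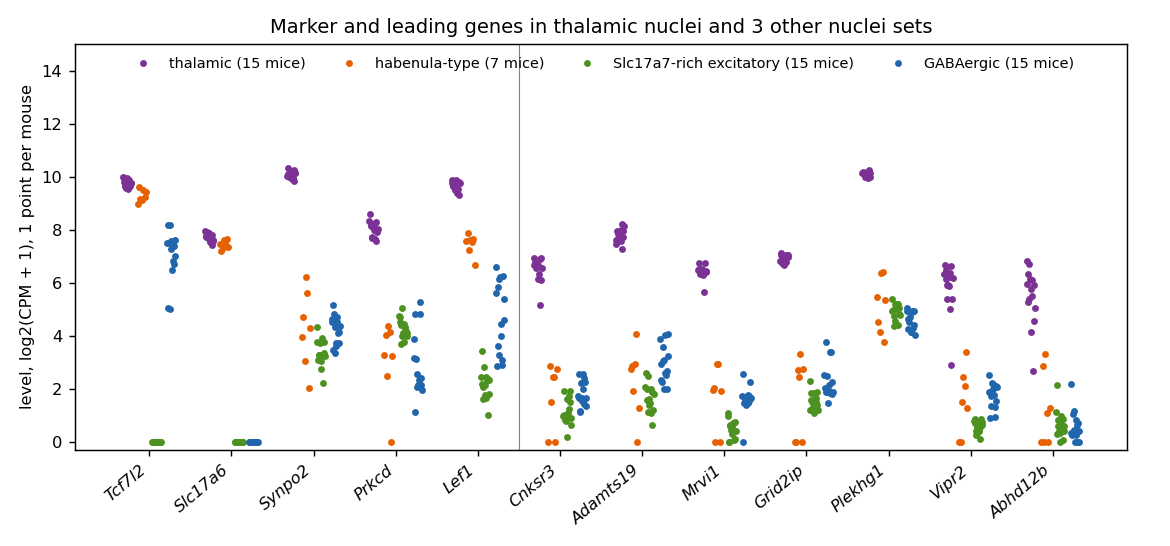
Level of the 5 marker genes (left of the line) and of the 7 leading genes that the rule did not use (right), as log2(CPM + 1) on the vertical axis, with 1 point per mouse and a colour per set of nuclei. Thalamic points lie above those of every other set for Synpo2, Prkcd, Lef1 and the leading genes, except that the lowest thalamic mouse for Vipr2 (6.41 CPM) and for Abhd12b (5.34 CPM) falls among the habenula-type points. Tcf7l2 and Slc17a6 are shared with habenula-type nuclei.

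Other genes of the thalamic nuclei were ranked by their fold over the highest of the 3 other sets, among genes with at least 50 CPM. After Synpo2 (39.9-fold), the list ran through genes the rule did not use. Cnksr3, a signalling scaffold, had 93.8 CPM ± 23.1 (29.1-fold). Adamts19, a secreted metalloproteinase, had 221 CPM ± 40.1 (29-fold). Mrvi1, a partner of the inositol trisphosphate receptor, had 85.3 CPM ± 13.2 (27-fold), and Grid2ip, which binds a delta glutamate receptor, had 120 CPM ± 12.2 (26.3-fold). Plekhg1, a guanine nucleotide exchange factor, combined a high fold (25.2) with a narrow spread, at 1077 CPM ± 66.3 and from 974 to 1208 CPM over the 15 mice.

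The remaining leading genes were less even. Vipr2, a receptor for vasoactive intestinal peptide and PACAP, reached 63.9 CPM ± 25.9 but ranged from 6.41 to 99.5 CPM between mice (21.9-fold). Abhd12b ranged from 5.34 to 111 CPM (21.3-fold). Cwh43 had 60.7 CPM ± 16 (17.6-fold), and Ramp3, a partner of calcitonin-family receptors, had 61.7 CPM ± 16.9 (17.3-fold). The 10 genes were ranked on these same levels, and the rule used Synpo2, so the values per mouse describe them and test nothing. Within each of the 15 mice, all 10 genes were higher in thalamic nuclei than in every other set with at least 10 nuclei in that mouse. For habenula-type nuclei this covered 7 mice, from the NP and stress RE groups only. Both Vipr2 and Abhd12b also differed in level between the sub-clusters of thalamic nuclei described below, with 178 CPM ± 37.3 of Vipr2 in sub-cluster 1 and 14.1 CPM ± 7.39 in sub-cluster 2, and with 60.9 to 437 CPM of Abhd12b over mice in sub-cluster 1 and 1.1 to 18.5 CPM in sub-cluster 2.

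Of 30 thalamic regional genes listed, some were higher in thalamic nuclei than in the other sets and some were not. Rora, a nuclear receptor of thalamic and cerebellar neurons, had 3848 CPM ± 489 (n = 15), against 1775 CPM in GABAergic nuclei. Ntng1, which encodes the axonal adhesion molecule netrin-G1, had 3606 CPM ± 251 against 304 to 332 CPM in the other sets. The level of Rorb was 495 CPM ± 58.9 against 8.96 to 65.5 CPM. Zic1, a zinc finger factor, went the other way and was higher in habenula-type (296 CPM) than in thalamic nuclei (114 CPM ± 17.5). Gbx2, which is needed in the developing thalamus, was at 2.03 CPM ± 0.981 in these adult nuclei, against 0.0192 to 0.315 CPM in the other sets. Calb1, a calcium-binding protein, was at 44.6 CPM ± 9.45 in thalamic and 42.5 CPM ± 10.4 in Slc17a7-rich nuclei. Slc17a7 (VGLUT1) had 65.4 CPM ± 16.4 against 319 CPM ± 60.1 in Slc17a7-rich nuclei. At 3000 UMIs it was found in 15.7% of thalamic and 3.4% of GABAergic nuclei. The rule for GABAergic nuclei itself capped Slc17a7, so this difference cannot show whether the thalamic level was above background.

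Wnt and beta-catenin genes were listed because Tcf7l2 and Lef1 act in that pathway. Its 3 members with the most UMIs in thalamic nuclei were Tcf7l2, Lef1 and Apc (408 CPM ± 20.9), a scaffold of the complex that degrades beta-catenin. The other factors of the family were nearly absent, with Tcf7 at 0.578 CPM and Tcf7l1 at 1.75 CPM. Among ligands, Wnt3 had 36 CPM ± 4.34 against 1.56 to 4.96 CPM in the other sets, and Wnt4 had 29.8 CPM ± 7.45 against 1.43 to 5 CPM. Axin2, a common target of the pathway, was lower in thalamic (21.3 CPM ± 2.63) than in habenula-type nuclei (57.8 CPM). The R-spondin Rspo3 was at 16.2 CPM ± 7.91 against 167 CPM in habenula-type nuclei. Ctnnb1, beta-catenin itself, was alike in thalamic (90.1 CPM ± 11.5) and habenula-type nuclei (92.3 CPM).

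Among ion channels behind thalamic firing, Cacna1g, the T-type calcium channel CaV3.1, had 189 CPM ± 30.6, from 157 to 285 CPM over mice, against 17.7 to 49.5 CPM in the other sets. Cacna1h and Cacna1i, the other T-type channels, were low in thalamic nuclei (5.75 CPM ± 2.43 and 7.74 CPM ± 2.5) and higher elsewhere (up to 80.4 CPM for Cacna1h and 61.4 CPM for Cacna1i). Plcb4, the phospholipase that couples receptors to thalamic firing mode, had 722 CPM ± 35.8 against 19.4 CPM in Slc17a7-rich nuclei. The 3 channels with the most UMIs were Cacna1c (3083 CPM ± 392), an L-type calcium channel, and the potassium channels Kcnc2 (3050 CPM ± 260) and Kcnd2 (2994 CPM ± 421). Kcnc2 was at 286 to 1002 CPM in the other sets, whereas Kcnd2 was higher in habenula-type nuclei (5956 CPM). Hcn2 and Hcn4, pacemaker channels, had 51.8 CPM ± 12.5 and 28.7 CPM ± 7.18, and Hcn4 was at 0.233 CPM in Slc17a7-rich nuclei.

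Transmitter receptors differed from the other sets in both directions. Among the glutamate receptors, Grm7 had 3012 CPM ± 282 and Grin2b 2610 CPM ± 197, against 2330 and 2291 CPM in Slc17a7-rich nuclei. Of the AMPA receptor subunits, Gria4 was higher in thalamic (1174 CPM ± 81.3) than in Slc17a7-rich nuclei (193 CPM), and Gria1 was lower (710 CPM ± 102 against 4099 CPM). Grin2c, an NMDA receptor subunit, had 58.1 CPM ± 27 against 0.887 to 6.85 CPM elsewhere, and Grm4 had 184 CPM ± 40.9 against 7.41 to 35.6 CPM. Among GABA receptors the most UMIs came from Gabrb1 (1474 CPM ± 166), Gabbr2 (1315 CPM ± 168) and Gabrb2 (664 CPM ± 84.7). Gabra4 (530 CPM ± 84.5) and Gabrd (75.8 CPM ± 23.4), subunits of extrasynaptic receptors for tonic inhibition, were at most 182 and 22 CPM in the other sets.

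Of the dopamine receptors, which the study followed in the dHF, thalamic nuclei held Drd2. It had 20.1 CPM ± 4.95, from 15.2 to 33.1 CPM over the 15 mice, against 1.33 CPM in habenula-type, 1.83 CPM in Slc17a7-rich and 35.7 CPM in GABAergic nuclei. At 3000 UMIs, 5.96% of thalamic and 0.323% of Slc17a7-rich nuclei had a Drd2 UMI. Drd1 was at 0.663 CPM ± 0.613 (0.108% of thinned thalamic nuclei), which was below the level in Slc17a7-rich nuclei (2.3 CPM). Drd4 (0.0417 CPM), Drd3 (1.81 CPM) and Drd5 (2.09 CPM) were low over all thalamic nuclei.

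Among the other monoamine receptors, the most UMIs came from Htr2c (138 CPM ± 25.3), Htr7 (102 CPM ± 12.1) and the adrenergic receptor Adra1b (85.3 CPM ± 16.1). Adra1b was at 2.6 to 16.7 CPM in the other sets, whereas Htr2c was higher in habenula-type (559 CPM) and GABAergic nuclei (254 CPM). Of the acetylcholine, orexin, opioid and cannabinoid receptors, Chrm3 (426 CPM ± 75.7), Chrm2 (132 CPM ± 20.6) and the nicotinic subunit Chrna4 (52.2 CPM ± 14.5) led. Chrna4 was at 3.15 to 8.19 CPM elsewhere. Chrna3, Chrnb3 and Chrnb4, nicotinic subunits of the habenula, were at 0.382, 0.121 and 0.0813 CPM, against 62.3, 57.5 and 37.7 CPM in habenula-type nuclei.

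Hormone receptors were led by Igf1r (517 CPM ± 40.6), Nr3c2 (300 CPM ± 35.5) and Nr3c1 (290 CPM ± 38.2). Nr3c1, the glucocorticoid receptor, was higher in thalamic nuclei than in the other sets (43.7 to 92.9 CPM), and the mineralocorticoid receptor Nr3c2 was at 1375 CPM in Slc17a7-rich nuclei. Esr1 (1.54 CPM ± 0.753), Oxtr (0.0554 CPM) and Avpr1a (0.00696 CPM) were close to absent. The prolactin receptor Prlr had 13 CPM ± 4.56, against 7.32 CPM in habenula-type, 7.27 CPM in Slc17a7-rich and 31.9 CPM in GABAergic nuclei.

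The nuclei were then clustered among themselves, which gave 16 sub-clusters. In 6 of them, 57.9% to 87.7% of the nuclei had Scrublet doublet scores in the top range of their library (0.8% of barcodes per 1000 barcodes). The other 10 sub-clusters had 0% to 13.2%. These 6 mixed sub-clusters held 991 of the 6518 nuclei. Leading genes were those of oligodendrocytes in sub-cluster 6 (252 nuclei, Prr5l and Ninj2 among others). In sub-cluster 8 (282 nuclei, Glis3 and Gpc4) they were those of dentate granule neurons. They were those of astrocytes in sub-cluster 13 (101 nuclei, Fgfr3), oligodendrocyte precursors in 14 (47 nuclei, Pdgfra) and microglia in 15 (62 nuclei, Inpp5d). In sub-cluster 12 (247 nuclei) the leading genes, Pde1a and transcripts such as Gm2164, did not settle which other cells it held. The summed level of 7 oligodendrocyte markers was 845 CPM in the mixed and 84.1 CPM in the other sub-clusters. The definition of the mixed sub-clusters was set after their genes and scores had been seen, and they were kept unless stated. The 5527 remaining nuclei are described below by the sub-cluster number and leading genes.

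Sub-cluster 2 was the largest, with 1542 nuclei from 15 mice. Its leading genes were the growth factor Fgf10 (243 CPM against 34.4 CPM in the other thalamic nuclei), Gm16263, Ankfn1, the ephrin receptor Ephb1 (279 against 54.9 CPM), the semaphorin receptor Nrp2 and Plpp4. Fgf10 was seen in every mouse, from 82 to 338 CPM. Its level of the potassium channel Kcnq5 (1195 CPM ± 170, n = 15 mice) overlapped that of sub-cluster 0 (1011 CPM ± 211, n = 14). Its Drd2 level (32 CPM ± 7.58) overlapped that of sub-cluster 0 (26.9 CPM ± 8.87) and was above that of sub-cluster 1 (11.3 CPM ± 3.28) in its whole range over mice. It had little of the GABA receptor subunit Gabrg3 (24.5 CPM ± 8.93, against 1138 CPM ± 172 in sub-cluster 1).

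Sub-cluster 3 (995 nuclei) was led by Cpne5 (80.4 against 13.7 CPM), Atp2b4, Mob3b, Col8a1, Plcxd3 and Fnbp1l, and had 107 CPM ± 22.8 of Calb1, 670 CPM ± 55.2 of Necab1 and 718 CPM ± 112 of Foxp2 (n = 14 mice), against 15.9 CPM ± 5.76, 110 CPM ± 36.1 and 124 CPM ± 27.1 in sub-cluster 2 (n = 15). Necab1, a calcium-binding protein, overlapped between sub-clusters 3 and 5 (696 CPM ± 86 in 5, n = 15), and in sub-cluster 5 the Calb1 level was 63.7 CPM ± 24.5. The 6 leading genes of sub-cluster 5 (671 nuclei) were Cd247 (60.7 against 3.39 CPM), the parathyroid hormone receptor Pth2r (68.5 against 3.87 CPM), the mu opioid receptor Oprm1 (210 against 13.8 CPM), the relaxin receptor Rxfp1 (53.1 against 3.55 CPM), Thsd7b (745 against 50.8 CPM) and Gm19303. Oprm1 was 199 CPM ± 40.4 in sub-cluster 5 (n = 15 mice, from 120 to 256 CPM), 18.8 CPM ± 7.86 in sub-cluster 3 and 2.46 CPM ± 1.97 in sub-cluster 2, so its thalamic level came largely from 1 sub-cluster. The same held for Drd3, at 16.1 CPM ± 5.74 in sub-cluster 5 and 0.0246 CPM in sub-cluster 2. Sub-cluster 5 had little Prkcd (79.8 CPM ± 32.2) and held Prlr at 38.7 CPM ± 19.7, which overlapped the level in sub-cluster 3 (28.6 CPM ± 13), against 2.97 CPM ± 3.6 in sub-cluster 2.

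Sub-clusters 1 and 11 had the most Prkcd, at 501 CPM ± 66.1 (n = 14 mice) and 500 CPM ± 91.4 (n = 11). Sub-cluster 1 (880 nuclei) was led by Abhd12b (248 against 31.8 CPM), Tspear, the adhesion receptor Adgrf5, the phospholipase Plch1, Vipr2 (166 against 47.5 CPM) and the matrix protein tenascin C, Tnc (158 against 47.5 CPM). The leading genes of sub-cluster 11 (484 nuclei) were the R-spondin receptor Lgr5 (82.3 against 17.2 CPM), Csgalnact1, Gm20658, the laminin Lamb1, Vipr2 (197 against 53.5 CPM) and the cadherin Cdh4. Both also shared Tnnt1 (41.9 CPM ± 18.3 and 45.3 CPM ± 13.6, against 1.04 CPM ± 0.76 in sub-cluster 2) and Rora (5944 CPM ± 431 and 5194 CPM ± 529, against 3012 CPM ± 340). Kcnq5 was low in both (78.6 CPM ± 35.6 and 123 CPM ± 34.2).

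Sub-cluster 0 (601 nuclei) was weakly set apart, with a fold of 4.02 for its leading gene Zfp114 (56.4 against 14 CPM) and folds of 1.66 to 1.84 for Kcnq5, Schip1, Unc13c, Colec12 and Tmem132c. In contrast, 4 small sub-clusters had leading genes at folds of 66.2 to 310. Sub-cluster 9 (144 nuclei) was led by the potassium channel partner Kcnip1 (1150 against 16 CPM), Elfn1, the tachykinin receptor Tacr1 (118 against 4.32 CPM), Kcnh8, Bmpr1b and Gulp1. It had the highest levels of Htr2c (793 CPM ± 282, n = 8 mice), Grm8 (1254 CPM ± 291), Grik1 (2333 CPM ± 483) and Calb2 (147 CPM ± 53.1) among the 10. Prlr in sub-cluster 9 was 104 CPM ± 91.9 and ran from 0 to 303 CPM over 8 mice.

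Sub-cluster 10 (98 nuclei) was led by the orphan receptor Gpr139 (66 against 0.997 CPM), the guidance cue Ntn1 (104 against 1.79 CPM), Megf11 (912 against 20.8 CPM), Col27a1, Slco1c1 and Stk32b. In the 3 mice with at least 10 of its nuclei, it had little Lef1 (212 CPM ± 17.6) and Foxp2 (2.6 CPM ± 2.85). Sub-cluster 7 (78 nuclei) was led by the neuropeptide S receptor Npsr1 (863 against 6.61 CPM), Col27a1, the integrin Itga4, Glis1, Rgs6 and Gm2694, and had 1284 CPM ± 171 of Chrm3 (n = 3). Sub-cluster 4 (34 nuclei) was led by gastrin-releasing peptide, Grp (59.4 against 0.192 CPM), Hpse2, Lypd6b (725 against 4.94 CPM), Cbln4, Dipk1c and Lypd6. No mouse had 10 nuclei of sub-cluster 4, so its values have no spread over mice. Pooled, its Foxp2 level was 1287 CPM and its Lef1 level 178 CPM.

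**Figure D2:**
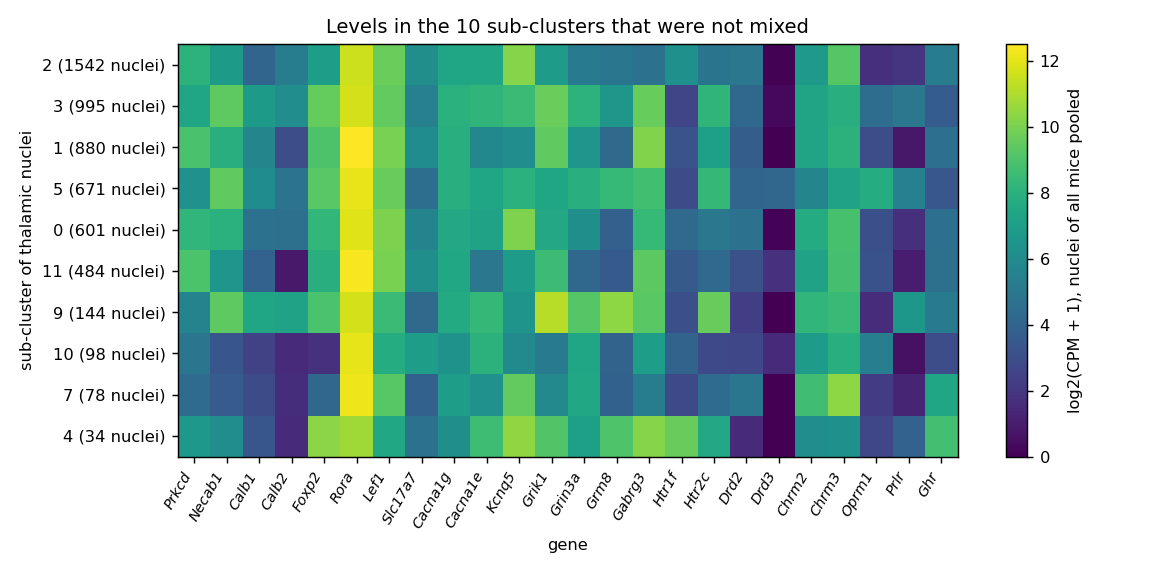
Levels of 24 regional, channel and receptor genes (horizontal axis) in the 10 sub-clusters that were not mixed (vertical axis, largest on top), as log2(CPM + 1) over the pooled nuclei of all mice. Prkcd is brightest in sub-clusters 1 and 11, Oprm1 and Drd3 in 5, and Grm8, Htr2c and Grik1 in 9.

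These levels describe clusters that were built from the same counts, so none was tested. Lef1 and Rora were present in all 10. The sub-clusters carry no name of a thalamic nucleus here, since no marker of single nuclei was set for that purpose.

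Whether reproduction and postpartum stress went with a different share of thalamic nuclei was asked over mice. In the 6 NP mice the share of barcodes with at least 1000 genes was 4.36% in the lowest, 5.62% at the median and 7.6% in the highest. The control RE mice had 5.71% (554 nuclei, 95% Wilson interval 5.27% to 6.19%), 6.35% (587 nuclei, 5.87% to 6.87%), 3.82% (411 nuclei, 3.47% to 4.2%) and 3.59% (362 nuclei, 3.24% to 3.97%). The 5 stress RE mice had 9.34% (735 nuclei, 8.71% to 10%), 3.11% (162 nuclei, 2.67% to 3.62%), 6.34% (702 nuclei, 5.91% to 6.81%), 1.32% (104 nuclei, 1.09% to 1.6%) and 5.08% (461 nuclei, 4.64% to 5.55%). The groups overlapped throughout, and stress RE mice held both the highest and the lowest share. The Wilson intervals cover counting error only and are far narrower than the spread between mice.

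The 6 NP mice averaged 5.59% ± 1.22 (SD), the 4 control RE mice 4.87% ± 1.37 and the 5 stress RE mice 5.04% ± 3.07. In exact permutation tests, two-sided and adjusted over 3 comparisons, control RE differed from NP by −0.726 percentage points (p = 0.41, adjusted p = 0.921), stress RE from control RE by 0.169 points (p = 0.921, adjusted p = 0.921) and stress RE from NP by −0.557 points (p = 0.699, adjusted p = 0.921). The smallest p these designs allow is 0.00476, 0.00794 and 0.00216. Within batches the differences changed sign for stress RE. In batches 2 and 3, stress RE minus control RE came to −1.77 and 3.08 points and control RE minus NP to −1.02 and −0.381 points. For stress RE minus NP the values were −2.54, −2.79 and 2.69 points in batches 1 to 3. No difference pooled over batches was larger than the SD of either group compared. The differences within batches rest on few mice, and some were larger than the SDs of the groups compared. They were not tested.

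**Figure D3:**
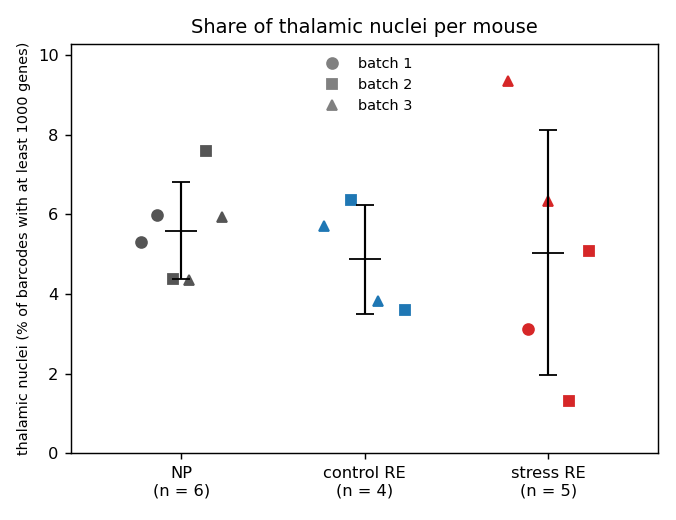
Share of thalamic nuclei among barcodes with at least 1000 genes (vertical axis, percent) in each mouse, by group, with the symbol giving the batch and the black bars the mean and SD. NP mice sit between 4.36% and 7.6%, and the stress RE group holds both extremes, 1.32% and 9.34%.

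The share of thalamic nuclei was also set against those of other nuclei that a punch can pick up from outside the dHF. Across the 15 mice, Pearson's r with the habenula-type share was 0.232 (permutation p = 0.401, adjusted p = 0.566) and Spearman's rank correlation was 0.182 (permutation p = 0.511, adjusted p = 0.511). Without the mice farthest from the median thalamic share, stress RE mice 43 and 77, r was 0.156. With the share of GABAergic nuclei carrying Otx2, r was −0.158 (permutation p = 0.566, adjusted p = 0.566) and Spearman's rank correlation −0.271 (permutation p = 0.328, adjusted p = 0.511), and r was −0.0952 without those mice. Within batches 2 and 3, r was 0.62 and −0.16 for the habenula-type and 0.5 and −0.902 for the Otx2 share, over 6 mice each. Neither relation was established. The habenula-type share itself was 0.568% ± 0.35 in NP (249 nuclei, from 0.0583% to 1.07%), 0.0442% ± 0.0326 in control RE (18 nuclei, from 0% to 0.0722%) and 0.177% ± 0.211 in stress RE mice (59 nuclei, from 0% to 0.461%). These punch contents thus differed in mean between the groups compared below, with overlapping ranges, and their part in the differences between groups was not tested. Every mouse held thalamic nuclei, while 2 mice had no habenula-type nucleus at all.

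The make-up of the thalamic nuclei varied widely between mice of 1 group. Sub-cluster 2 made up 13.8% of thalamic nuclei in the lowest and 27.5% in the highest NP mouse. In the control RE mice it was 22.6%, 29%, 15.1% and 39.2%, and in the stress RE mice 26.7%, 45.7%, 7.83%, 72.1% and 24.3%. The extreme belonged to stress RE mouse 77, in which 75 of 104 thalamic nuclei fell in sub-cluster 2 and none in sub-clusters 1 and 11, where 0 of 104 nuclei allows a share of up to 2.88%. Sub-cluster 3 averaged 16.9% ± 4.08 (n = 6) for NP mice, 14.8% ± 0.778 (n = 4) for control RE mice and 10.7% ± 6.68 (n = 5) for stress RE mice, and mouse 77 held 1 nucleus of it (0.962%).

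None of 48 comparisons of sub-cluster shares (16 sub-clusters in 3 group comparisons) passed the threshold in two-sided exact permutation tests. The smallest p was 0.0952 (adjusted p = 0.992), for sub-cluster 3 in stress RE minus NP, at −6.23 percentage points, and the difference ran from −7.66 (without mouse 75) to −3.8 (without mouse 77) with 1 mouse left out. Sub-cluster 2 was 13.8 points higher in stress RE than in NP mice (p = 0.227 in the exact permutation test, adjusted p = 0.992), 4.64 points higher without mouse 77 and 20.7 points higher without mouse 75 (unadjusted p = 0.0286 in the exact permutation test). With all mice, no comparison had an unadjusted p under 0.05. Small sub-clusters came from few mice: 56.4% of sub-cluster 7 (44 of 78 nuclei) and 39.8% of sub-cluster 10 (39 of 98 nuclei) were from stress RE mouse 43, and 8 of 15 mice held no nucleus of sub-cluster 7. The position of each punch is not in the labels, so its part in these differences was not tested.

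**Figure D4:**
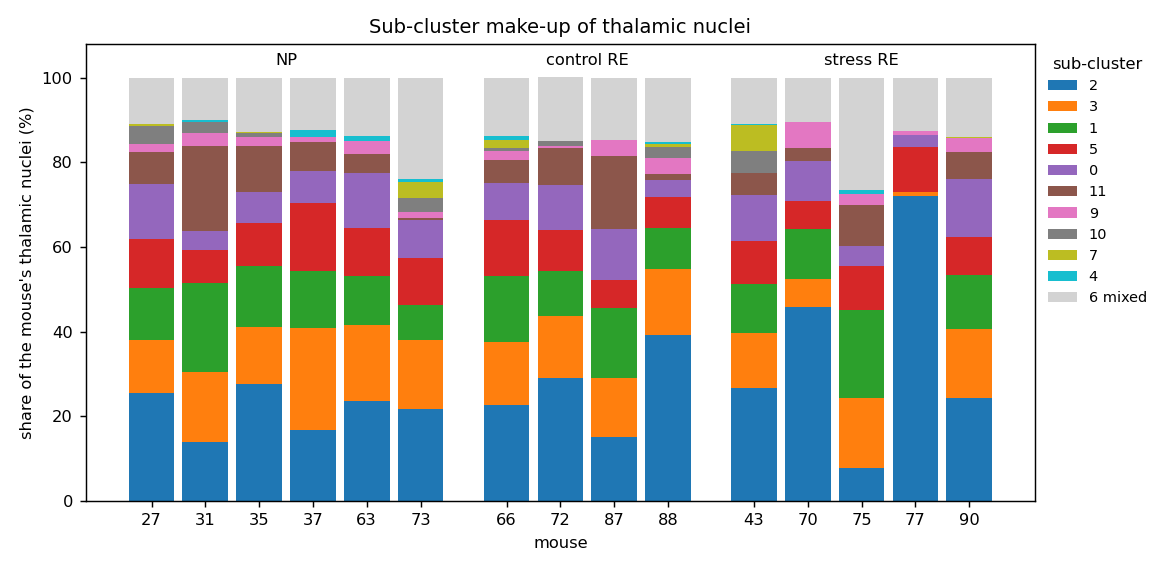
Sub-cluster make-up of the thalamic nuclei of each mouse (horizontal axis, ordered by group) as stacked shares in percent, with the 6 mixed sub-clusters joined in grey. Sub-cluster 2, at the base, runs from 7.83% (mouse 75) to 72.1% (mouse 77), both in the stress RE group.

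Gene expression in thalamic nuclei was compared between groups on counts summed per mouse. Of 14595 genes tested with edgeR's quasi-likelihood test, 0 (0%) were called in control RE minus NP, 0 (0%) in stress RE minus control RE and 0 (0%) in stress RE minus NP at an adjusted p under 0.05. DESeq2 also called 0 in each. At an unadjusted p under 0.05 there were 240 (1.64%), 139 (0.952%) and 314 (2.15%) genes with edgeR, and 270, 168 and 332 with DESeq2. The median standard error of a log2 fold change was 0.175, 0.184 and 0.167. Counts summed over all thalamic nuclei carry both the mix of sub-clusters and the level within them, so values within sub-clusters are given beside some genes.

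The genes with the smallest p-values are named below as values that missed the threshold (adjusted p = 1 for each, by edgeR). In stress RE minus NP the smallest was that of Nr3c1. The glucocorticoid receptor stood at 328, 338, 327, 338 and 338 CPM in the stress RE mice, at 297, 263, 288 and 259 CPM in the control RE mice, and between 221 and 291 CPM in the NP mice (median 278 CPM). Every stress RE mouse was above every NP and every control RE mouse. The log2 difference was 0.38 (standard error 0.09, unadjusted p = 0.000477) against NP and 0.26 (unadjusted p = 0.0149) against control RE, and with batch as a term it was 0.37 and 0.29. Over 26 other settings the difference from NP ran from 0.27 to 0.44. That from control RE ran from 0.12 (with the same number of nuclei per mouse, unadjusted p = 0.401 by edgeR) to 0.31. These settings are not independent. Asking for at least 30 nuclei per mouse left out no mouse and repeats the main fit. The fit of the largest sub-cluster is also that of sub-cluster 2 below. Within the 6 sub-clusters that could be fitted alone, the difference from NP was 0.19 to 0.44 and that from control RE 0.13 to 0.31, the latter with unadjusted p-values of 0.0544 to 0.297. Of 14595 genes, 4 (0.0274%) had all stress RE mice above all NP mice and 28 (0.192%) had all below. Nr3c1 was among the 4, and also among the 42 (0.288%) with all stress RE mice above all control RE mice. The other 3 of the 4 were Zfp281, Dusp19 and Nfat5, which were looked up after the values were seen. Nfat5, a factor of the osmotic response, was at 128 to 144 CPM in stress RE and 105 to 127 CPM in NP mice.

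The other genes nearest the threshold in stress RE minus NP were lower in stress RE mice. Stx1a, a presynaptic syntaxin, was 27.5 CPM ± 3.3 in NP and 20.9 CPM ± 1.07 in stress RE mice (log2 difference −0.35, standard error 0.09). Within the 5 sub-clusters fitted alone the Stx1a difference was −0.45 to −0.08, and in control RE minus NP it was −0.22. Fam83f (−1.14), Tonsl (−0.69) and Armc7 (−0.60) were rare transcripts, at 2.29, 4.91 and 5.4 CPM in NP mice. Within sub-cluster 2, the largest, the Armc7 difference was −0.21 (unadjusted p = 0.558).

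In stress RE minus control RE, the 5 genes were Npr3, Mapkapk3, Gm35021, Fkbp5 and Pkp2. Npr3, the clearance receptor for natriuretic peptides, was 0.843 CPM ± 0.31 in stress RE mice, below the 2.51 CPM ± 0.459 of control RE mice (log2 difference −1.52, standard error 0.41). In the same order, Mapkapk3 was 1.18 CPM ± 0.255 against 0.526 CPM ± 0.0414, and Gm35021 was 1.75 CPM ± 0.675 against 3.48 CPM ± 0.757. Pkp2, a desmosomal protein, was 97.8 CPM ± 17.7 against 131 CPM ± 8.65 (log2 difference −0.42). Npr3 was near the floor, with UMIs in 1.99% of thalamic nuclei, and stood at 22.7 CPM in Slc17a7-rich nuclei.

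Fkbp5, a chaperone partner of the glucocorticoid receptor and a classical glucocorticoid target, was 34.1, 31.2, 35 and 52.6 CPM in the control RE mice and 21.3, 26.1, 32.4, 15.5 and 26.9 CPM in the stress RE mice. NP mice had 26.2 CPM in the lowest, 28.1 CPM at the median and 37.3 CPM in the highest. Control RE and stress RE overlapped in 1 stress RE mouse. The log2 difference was −0.61 (standard error 0.19, unadjusted p = 0.00548) and ran from −0.80 to −0.38 (with the same number of nuclei per mouse) over other settings. Within the sub-clusters fitted alone it was −0.80 to −0.19, except for 0.31 in sub-cluster 11.

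In control RE minus NP, the 5 genes were rare transcripts. Slc9b2, a sodium/hydrogen exchanger, was 3.91 CPM ± 0.708 in NP and 2 CPM ± 0.688 in control RE mice (log2 difference −0.94, standard error 0.25, unadjusted p = 0.00137). Mapkapk3 (−1.25), 4930539J05Rik (−0.87) and the prostaglandin E synthase Ptges (−0.87) were also lower in control RE mice, and AC171003.1 (1.97) was higher, at 0.5 CPM in NP and 2.11 CPM in control RE mice. In Slc17a7-rich nuclei AC171003.1 stood at 18.2 CPM. All control RE mice were above all NP mice in 19 genes (0.13%), Znrf3 of the Wnt list among them. All were below in 58 genes (0.397%), Slc9b2, Mapkapk3 and 4930539J05Rik among them. Tle1, also of the Wnt list, was another of the 58 (log2 difference −0.08).

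**Figure D5:**
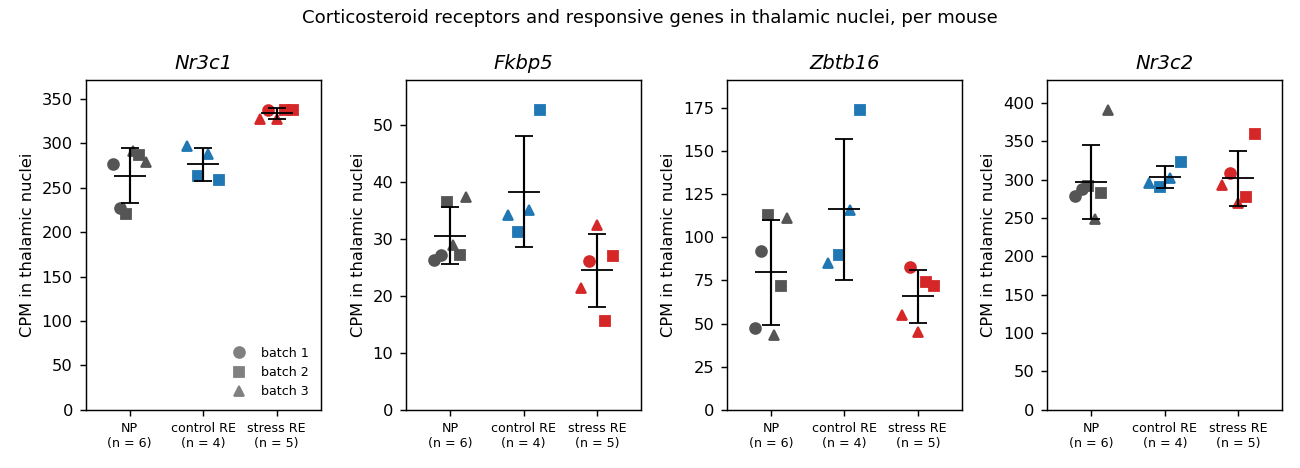
Levels of Nr3c1, Fkbp5, Zbtb16 and Nr3c2 in thalamic nuclei (vertical axes, CPM) in each mouse, by group, with symbols for batches and black bars for the mean and SD. The 5 stress RE mice lie at 327 to 338 CPM of Nr3c1, above all other mice. For Zbtb16 the stress RE mice (44.8 to 82.9 CPM) lie below the control RE mice (85.3 to 174 CPM) and NP mice overlap both, and for Fkbp5 and Nr3c2 all groups overlap.

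The gene lists were read beside these backgrounds, and 0 members of any list were called in any comparison. The lists had been chosen with earlier results of these data known. Of 13 glucocorticoid-responsive genes tested (15 listed), 3 had an unadjusted p under 0.05 in stress RE minus control RE, beside 0.952% of all genes. Beside Fkbp5 (lower) these were Zbtb16, a zinc finger repressor induced by glucocorticoids, which was lower, and Klf9 (0.18), which was higher but had differences of −0.17 to 0.31 within sub-clusters. Zbtb16 was 85.3, 89.7, 116 and 174 CPM in the control RE mice and 54.7, 82.9, 44.8, 74.3 and 71.9 CPM in the stress RE mice, so that the groups did not overlap, as for 47 (0.322%) of all genes tested in that direction. The log2 difference was −0.84 (standard error 0.30, unadjusted p = 0.013), −0.59 without control RE mouse 88, and −1.19 to −0.71 within the 6 sub-clusters. NP mice overlapped both groups, at 43.4 CPM in the lowest, 81.9 CPM at the median and 113 CPM in the highest.

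The direction was not shared by the whole list. Sgk1, the highest member (181 CPM ± 15.5 over 15 mice), had a log2 difference of 0.04 in stress RE minus control RE, and the median over the list was −0.106, beside 0.003 over all genes. In stress RE minus NP the median was −0.099 and 1 member, Per1 (−0.46), had an unadjusted p under 0.05. Without NP mouse 31 the Per1 difference was −0.26. In control RE minus NP the median was −0.059 and no member reached that p. Of 16 hormone receptors tested (22 listed), Nr3c1 alone had an unadjusted p under 0.05, with stress RE against each other group, and the list medians were 0.017, 0.022 and 0.004 in control RE minus NP, stress RE minus control RE and stress RE minus NP.

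Other lists gave few members at that level. Over all genes it was reached by 1.64% (control RE minus NP), 0.952% (stress RE minus control RE) and 2.15% (stress RE minus NP). Of 27 thalamic regional genes tested (30 listed), Zic4 (−0.25) and Ramp3 (−0.48) were lower in control RE minus NP, Ramp3 was higher in stress RE minus control RE (0.45) and the orexin receptor Hcrtr2 was lower in stress RE minus NP (−0.90). Of 41 Wnt genes tested (56 listed), Znrf3 (0.16) in control RE minus NP and Wnt5a (0.69) in stress RE minus control RE reached it, both higher. The 40 ion channels tested (41 listed) had 5 such values: Hcn2 (−0.35) and Kcnk3 (−0.39) in control RE minus NP, Trpc4 (−0.64 in all nuclei, 0.23 within sub-cluster 2) in stress RE minus control RE, and Kcnq5 (0.51) and Kcnc2 (0.21) in stress RE minus NP. Kcnq5, which is rich in sub-clusters 2 and 0, had differences of −0.44 to 0.48 within sub-clusters and of 0.29 to 0.68 with 1 mouse left out. The Hcn2 difference was −0.16 with batch as a term and −0.42 to −0.21 with 1 mouse left out.

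No member reached an unadjusted p under 0.05 among 28 glutamate receptors, 14 of 16 GABA receptors, 18 of 27 monoamine receptors and 15 of 17 Tgm2 and H3K4 methylation genes that could be tested. Kmt2a (328 CPM ± 43), Kmt2c (251 CPM ± 11.6) and Kmt2e (205 CPM ± 7.67), the 3 highest members of the last list, had log2 differences of −0.12 to 0.05 between groups, and Tgm2 itself was at 0.726 CPM, too low to test. For Drd2 the log2 differences were 0.10 in control RE minus NP (standard error 0.19), 0.16 in stress RE minus control RE and 0.26 in stress RE minus NP. Of 11 acetylcholine, orexin, opioid and cannabinoid receptors tested (20 listed), Hcrtr2, already named, was the only one.

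Of 14 immediate early genes tested (19 listed), Nr4a3 (−0.85 in stress RE minus NP) alone had an unadjusted p under 0.05. The highest members were Homer1 (78.2 CPM ± 10.1, against 169 CPM in Slc17a7-rich nuclei), Nr4a1 (29.3 CPM ± 7.06) and Jund (16.2 CPM ± 6.33), and Fos was at 1.63 CPM ± 1.59.

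Markers of other cells were counted in the thalamic nuclei because RNA or nuclei of those cells could move with a group. The summed level of 7 oligodendrocyte markers was 136 to 432 CPM over mice, beside 1088 to 2645 CPM in the whole libraries, with Mbp at 49.7 CPM and St18 at 49.5 CPM. Astrocyte markers summed to 620 to 816 CPM, but this rested on Slc1a2 (334 CPM) and Slc4a4 (323 CPM), with Aqp4 at 2.65 CPM and Gfap at 0.906 CPM. Microglial markers summed to 40.5 to 118 CPM (P2ry12 and Cx3cr1 among them), and precursor markers to 201 to 336 CPM, nearly all from Ptprz1 (264 CPM), with Vcan at 7.46 CPM and Pdgfra at 2.02 CPM. Vascular and choroid plexus markers summed to 5.97 to 58.7 CPM, led by Ttr (14.8 CPM), Flt1 and Pecam1.

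Markers of neurons from elsewhere were counted in the same way. Dentate granule markers summed to 176 to 309 CPM, led by Prox1 (115 CPM ± 11, against 129 CPM ± 28.8 in Slc17a7-rich and 37.7 CPM ± 5.87 in GABAergic nuclei), Stxbp6 (81.1 CPM) and Trpc6 (15.8 CPM), and pyramidal markers to 6.77 to 21.6 CPM (Wfs1 and Spink8 among them). Habenular markers summed to 8.79 to 48.6 CPM, almost all from Nwd2, with Gpr151, Tac2 and Chrnb3 each under 1 CPM. GABAergic markers summed to 8.6 to 23.7 CPM (Gad1 and Gad2 among them), and striatal projection markers to 33 to 70 CPM, led by Rarb (33.8 CPM), Rgs9 and Ppp1r1b. Between groups, the oligodendrocyte list had median log2 differences of −0.348 in control RE minus NP and 0.322 in stress RE minus control RE, and the microglial list 0.205 and −0.251. In these lists Ppp1r1b had an unadjusted p under 0.05 in stress RE minus control RE, where it was higher (1.91). Mixed sub-clusters made up 13.9% ± 5.12 of the thalamic nuclei of NP mice, 14.7% ± 0.69 of those of control RE mice and 14.9% ± 6.62 of those of stress RE mice. Without them, 0 genes were called in any comparison, and the Nr3c1 difference from NP was 0.39.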

How the data were processed

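The deposited matrices hold UMI counts per gene and nucleus, which the authors made with Cell Ranger (7.1.0 in their notes) on mm10 with its cell filter. Their later ambient-RNA, doublet and normalisation steps are not in these counts. Members and gene lists were chosen with earlier results of these data known. The 15 libraries were read as deposited, without removal of doublets or ambient RNA. Scrublet (scanpy 1.11.5) scores, taken at 0.8% of barcodes per 1000 barcodes, served as an alternative for doublets only. Ambient RNA was not estimated in any setting. Thalamic nuclei were clustered with Leiden (leidenalg 0.10.2, resolution 0.5). Counts were summed per mouse (at least 10 nuclei) and fitted with edgeR 4.0.16 (all 3 groups in 1 quasi-likelihood fit, filterByExpr, TMM normalisation, Benjamini-Hochberg adjustment at 0.05), and DESeq2 1.42.0 was an alternative. The edgeR step was tested on simulated data. Counts were drawn from the fitted means and dispersions, with 86 to 114 of 14595 genes changed per comparison and size of change. There, 60.5% to 73.4% of genes changed by a log2 of 1 were called and 89% to 93% of those changed by 2, with 7 or 8 false calls per comparison. In the real counts 0 genes were called and 0.952% to 2.15% had an unadjusted p under 0.05 with edgeR. The simulated shares therefore need not hold for the real data. Shares were compared with exact permutation tests and correlations with 100000 permutations, in Python 3.11.15 and R 4.3.3. Named genes were the markers, any called gene, the 5 with the smallest p per comparison, the 3 members of each of 21 lists with the highest CPM (some are not reported here), the 6 leading genes per sub-cluster (at least 50 CPM and UMIs in 25% of nuclei; those of mixed sub-clusters in part), the 10 leading thalamic genes, and further list members chosen after their values were seen, among them those with an unadjusted p under 0.05. Alternatives changed the Tcf7l2 threshold, denominator, depth, doublets, normalisation, low-count filter, number of nuclei, batch term, resolution and mice. The methods place every group in each batch, whereas the labels give batch 1 no control RE mouse. Libraries held 5789 to 12738 barcodes and 40602582 to 96211264 UMIs.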

Additional observations from a re-analysis of the deposited data

Results flagged for a closer look

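In 9 of 117 sets of 4 to 6 mice tested, 1 mouse lay far from the rest of its group, where chance alone gives about 5.85. Mixed sub-clusters made up 24% of thalamic nuclei in NP mouse 73, beside 9.8% to 13.7% in the other NP mice, and 26.5% in stress RE mouse 75, beside 10.5% to 14.1%. The mitochondrial share of thalamic UMIs was 0.129% in NP mouse 31, beside 0.0452% to 0.0683%. Sub-cluster 7, led by Npsr1, was 3.88% of thalamic nuclei in NP mouse 73 (others up to 0.639%) and 5.99% in stress RE mouse 43 (others up to 0.217%). Sub-cluster 10, led by Gpr139, was 5.31% in stress RE mouse 43 and 0% in the other stress RE mice. The Grp-led sub-cluster 4 was 0.997% in stress RE mouse 75, beside at most 0.272%. In control RE mouse 88, the mixed sub-cluster 6 was lowest (2.21%, beside 3.25% to 3.41%) and the mixed sub-cluster 12 highest (4.7%, beside 2.92% to 3.07%).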

How the results depend on the processing

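No gene and no sub-cluster share was called under any alternative. Of the other results, the difference in thalamic share between stress RE and control RE mice changed sign on the log2 scale (−0.185). Leaving out each mouse in turn gave −1.22 to −0.299 percentage points for control RE minus NP, −0.906 to 1.1 for stress RE minus control RE (negative without stress RE mice 43 or 75 or control RE mice 87 or 88) and −1.63 to 0.373 for stress RE minus NP (positive without mouse 77), while that for sub-cluster 2 in stress RE minus control RE ran from −0.34 (without mouse 77) to 15.7. Within sub-clusters, added after seeing the data, Fkbp5 was 0.31 in sub-cluster 11, Trpc4 was 0.23 in sub-cluster 2 (also the planned fit of the largest sub-cluster), Klf9 was −0.03 and −0.17 in sub-clusters 3 and 11, and Kcnq5 was −0.18, −0.12, −0.05 and −0.44 in sub-clusters 1, 3, 5 and 11. The cause was not tested. Without a filter on low counts, 611, 478 and 721 of 26058 genes had an unadjusted p under 0.05 in control RE minus NP, stress RE minus control RE and stress RE minus NP. No paired analysis was possible because replicate numbers are only names given in accession order. Median standard errors of 0.167 to 0.184 limit what these 15 mice can show for small changes. Barcodes shared between libraries were kept.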
